A study of Mus musculus with 6 samples.

Results

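The 9 genes described here encode subunits of cytochrome c oxidase: 4 pairs of a ubiquitous isoform and a muscle-type or lung-type isoform, namely Cox8a and Cox8b, Cox7a2 and Cox7a1, Cox6a1 and Cox6a2, and Cox4i1 and Cox4i2, together with Cox6b1. They are 9 of the 52636 genes in the count table, and 32905 of those genes had at least 1 UMI. The set was chosen by the Cox8b counts of cells of the retinal pigment epithelium (RPE), which differed between genotypes, and by subunit family. The genotype differences of the 9 genes in RPE cells are therefore given as a description, with no test.

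Retinas of male C57BL/6J mice aged 12 months were profiled by single-cell RNA sequencing, 3 from Dram2 wt/wt mice and 3 from Dram2 ko/ko mice. The ko allele is a constitutive CRISPR/Cas9 deletion of 1 coding exon, carried by every cell of the ko/ko animals, and the wt/wt mice carry no deletion. In both genotypes batch 1 holds replicate 3 and batch 2 the others. No label says whether the retinas came from separate animals, so p-values measure the spread between these samples.

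Depth was 3463728 to 6563762 UMIs per retina over 46375 cells, of which the authors typed 42359 as photoreceptors, 2083 as interneurons, 942 as glia, 246 as mesenchymal cells and 116 as RPE cells, and left 629 untyped. A UMI is a tag that marks 1 captured molecule, and levels are counts per 1000000 UMIs (CPM) in the sum over the cells of 1 type in 1 retina. The method counts 1 end of each transcript, so these levels are not divided by transcript length. Dram2 itself had 27.4 to 56.0 CPM over all cells, and wt/wt retinas (27.8, 34.8 and 56.0) lay close to those of ko/ko mice (27.4, 34.0 and 53.5); the counted end of the transcript lies outside the deleted exon, so these values cannot check the genotype labels. The 2 batch 1 retinas stood apart from the others, with mitochondrial shares of 3.22% and 2.75% against at most 0.720% in batch 2. Within batch 2, ko/ko replicate 1 differed from each other retina in its photoreceptor sums by a chi-square per degree of freedom of 11.8 to 17.3. Between the remaining batch 2 retinas it was 1.67 to 3.86. Cell identifiers carried no droplet barcodes, so barcodes shared between libraries could not be counted.

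Cytochrome c oxidase, or complex IV, is the last enzyme of the mitochondrial respiratory chain: it passes electrons from cytochrome c to oxygen and pumps protons across the inner membrane. Its catalytic core is encoded by the mitochondrial genome, whereas the smaller subunits around the core are encoded in the nucleus, and several of these exist as a ubiquitous form and a form bound to certain tissues. Cox8b, Cox7a1 and Cox6a2 are the forms of heart, skeletal muscle and, for some of them, brown fat, and Cox4i2 is the form of lung, induced by low oxygen. Photoreceptors and the RPE both depend heavily on oxidative metabolism.

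The 2 pairs whose tissue-type form had more UMIs than its partner in some retina and cell type were Cox8 and Cox4i. The coding sequences of Cox8a (210 bases) and Cox8b (213 bases) are shown because the report turns on which of them a cell carries. Both are 5′ to 3′ from GENCODE M21, and capitals mark the bases that differ from, or have no partner in, the other isoform.
Cox8a: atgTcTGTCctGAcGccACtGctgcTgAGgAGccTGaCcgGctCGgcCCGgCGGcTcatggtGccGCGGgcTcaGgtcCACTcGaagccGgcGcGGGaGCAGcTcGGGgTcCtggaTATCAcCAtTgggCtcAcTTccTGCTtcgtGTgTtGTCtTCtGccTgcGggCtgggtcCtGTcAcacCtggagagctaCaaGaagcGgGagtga
Cox8b: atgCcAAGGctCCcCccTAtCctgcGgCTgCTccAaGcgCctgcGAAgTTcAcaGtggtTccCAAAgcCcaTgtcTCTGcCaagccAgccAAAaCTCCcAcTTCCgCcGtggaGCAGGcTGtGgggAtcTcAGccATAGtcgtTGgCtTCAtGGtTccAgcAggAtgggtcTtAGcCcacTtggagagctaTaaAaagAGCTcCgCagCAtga
They were identical at 117 of 205 aligned bases (57.1%). Cox4i1 (510 coding bases) and Cox4i2 (519) were closer, with 344 of 493 aligned bases identical (69.8%), and their last 150 coding bases are shown with the same use of capitals.
Cox4i1: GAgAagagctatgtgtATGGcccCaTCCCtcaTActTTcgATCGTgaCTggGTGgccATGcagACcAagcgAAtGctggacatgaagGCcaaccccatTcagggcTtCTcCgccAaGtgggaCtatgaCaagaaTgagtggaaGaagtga
Cox4i2: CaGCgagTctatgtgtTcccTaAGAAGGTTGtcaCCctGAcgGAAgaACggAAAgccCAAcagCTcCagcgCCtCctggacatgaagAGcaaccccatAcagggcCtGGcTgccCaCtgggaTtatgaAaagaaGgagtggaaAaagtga
The other pairs lay between these: 65.3% for Cox6a1 and Cox6a2 and 64.5% for Cox7a2 and Cox7a1.

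On GRCm38, Cox8b (ENSMUSG00000025488) occupies chr7:140898945-140900446 on the minus strand with 2 exons, and Cox8a (ENSMUSG00000035885) lies on another chromosome, at chr19:7215153-7217616, minus strand, also with 2 exons. Cox4i2 (ENSMUSG00000009876) is at chr2:152754173-152765037 and Cox4i1 (ENSMUSG00000031818) at chr8:120668222-120674207, both on the plus strand with 5 exons. Cox7a1 is at chr7:30184144-30186078 and Cox7a2 at chr9:79755361-79759878. Cox6a2 is at chr7:128205435-128206387, Cox6a1 at chr5:115345642-115348981 and Cox6b1 at chr7:30616861-30626151. Since reads start near the end of a transcript, the last 300 bases were searched for 25-base words shared with any other annotated transcript. No member shared a word with another member, so reads of the isoforms do not mix by that measure. Cox7a2 shared 19 of its 276 words with the processed pseudogene Gm13433, which had 421 UMIs against 13606 for Cox7a2. Cox6a1 shared 77 of its 276 words with 1 pseudogene that had no UMI, and Cox4i2 shared 3 words in all with Accs and Cmklr1. The counts of these members are uncertain for reads within shared words, and how many such reads there were was not measured.

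Cox8b, the muscle-type form of the smallest subunit, was found mainly in RPE cells. Of its 351 UMIs, 277 (78.9%) came from RPE cells, which held 0.250% of all cells and 0.540% of all UMIs. RPE cells of wt/wt retinas had 599, 564 and 1752 CPM and those of ko/ko retinas 3578, 1464 and 4100 CPM, a mean of 2009 ± 1502 (SD, n = 6). The next type, interneurons, had 12.8 ± 7.30 CPM, 157 times less, and all 6 retinas showed this order. Glia had 2.60 CPM from 3 UMIs, mesenchymal cells 2.13 CPM from 1 UMI and photoreceptors 1.34 CPM from 26 UMIs, and these 3 types could not be ordered. The 629 untyped cells, with a median of 506 UMIs, had no Cox8b UMI, which allows a share of cells with a UMI of up to 0.477% and does not limit the share that expresses the gene.

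The paper regards RPE cells in these preparations as an artifact of isolating the retina. Their identity was checked against markers fixed with the design. Of 8 RPE markers 7 had UMIs (Rpe65, Rgr, Lrat, Ttr, Rdh5, Rlbp1 and Rrh), and their sum was 93472 to 107628 CPM (wt/wt) and 110994 to 124706 CPM (ko/ko); Best1 was at 0 in every RPE cell. All 5 melanin genes had UMIs. Because Cox8b is a muscle gene, 9 striated muscle markers were looked up in the same cells: 8 were at 0, and the list reached 27.8 CPM in wt/wt replicate 3 and 0 in the other 5 retinas. The 6 fibroblast markers were at 0. The 3 markers of melanocytes apart from RPE cells (Sox10, Kit and Ednrb) all had UMIs. Their sum was 27.8 to 112 CPM (wt/wt) and 44.4 to 58.6 CPM (ko/ko). Rod markers were present at 8797 to 12205 CPM (wt/wt) and 5368 to 10777 CPM (ko/ko). The list of 6 glial markers was at 11983 to 13872 CPM (wt/wt) and 15430 to 15927 CPM (ko/ko) in RPE cells, against at least 39266 CPM in glia. It shares Rlbp1 with the RPE list; Slc1a3 was at 0 in RPE cells, and Glul, Dkk3, Slc1a3 and Aqp4 together had 105 UMIs there.

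**Figure D1:**
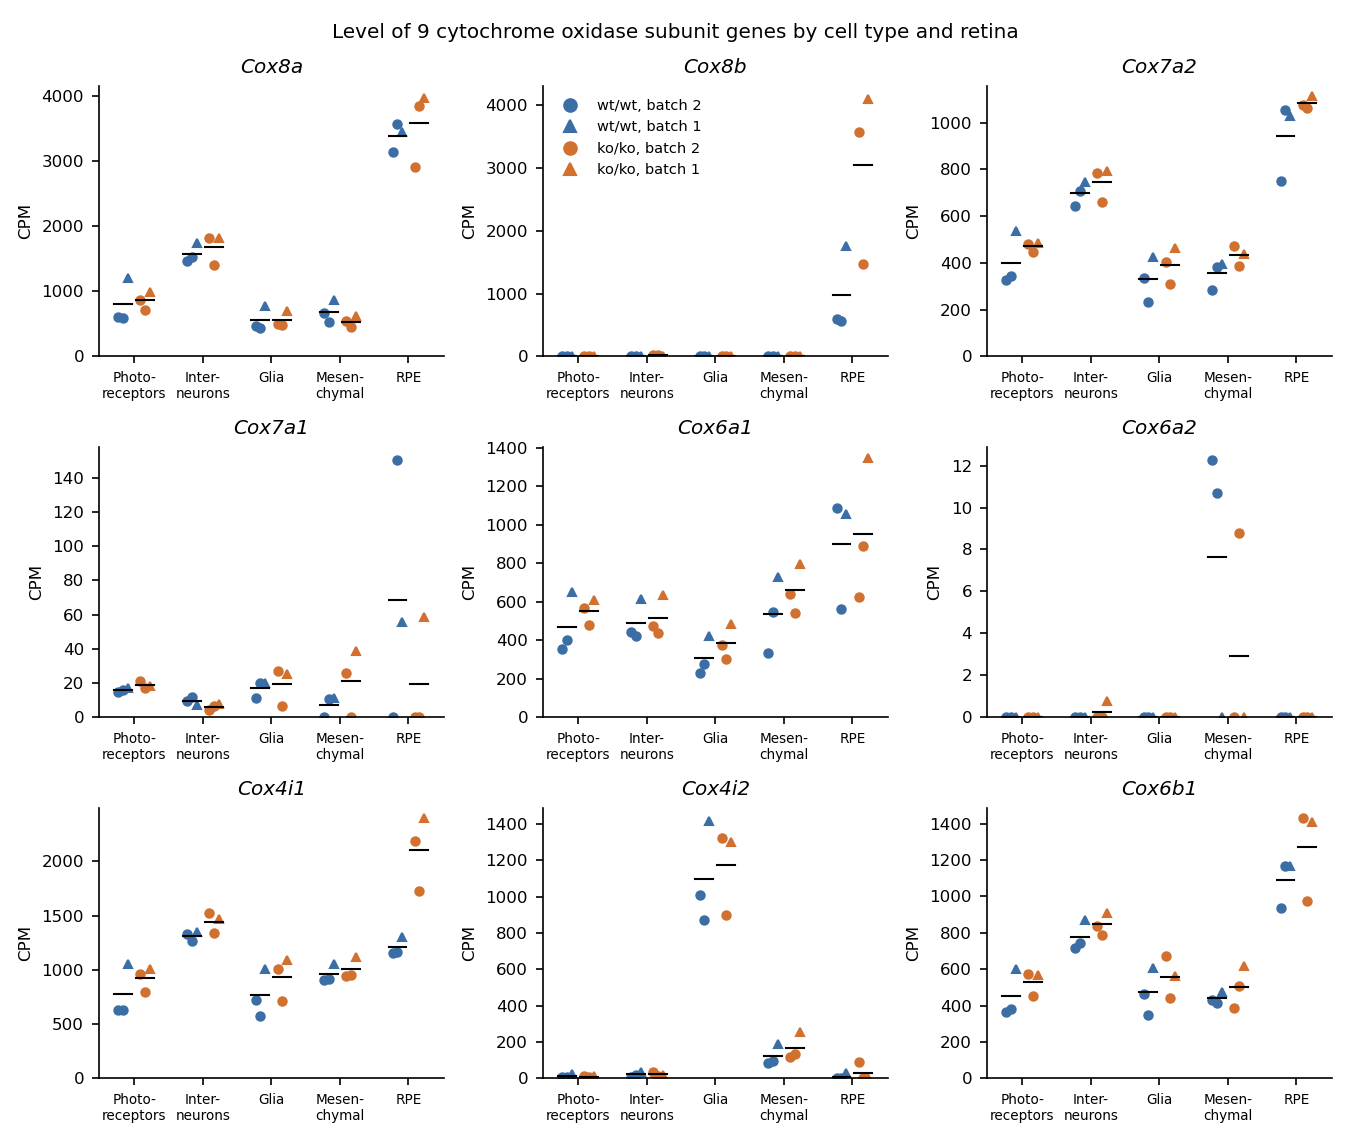
Level of each of the 9 genes in CPM (linear axes from 0) in 5 cell types, 1 point per retina, blue for wt/wt and orange for ko/ko, triangles for batch 1 and circles for batch 2, with a bar at the mean of each genotype. Cox8b is highest in the RPE column, from 564 to 4100 CPM, and Cox4i2 is highest in glia, from 870 to 1417 CPM.

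Cox8a, the ubiquitous partner, was also highest in RPE cells, but present everywhere. It had 3485 ± 412 CPM in RPE cells (SD, n = 6), 1628 ± 185 in interneurons, 832 ± 239 in photoreceptors, 610 ± 144 in mesenchymal cells and 559 ± 136 in glia. The ranges over retinas were apart between RPE cells and interneurons and between interneurons and photoreceptors, and overlapped further down. Cox8b made up 16.0%, 13.6% and 33.7% of the UMIs of the pair in the wt/wt RPE sums and 55.2%, 27.5% and 50.7% in the ko/ko RPE sums. In ko/ko replicates 1 and 3 the muscle-type form thus had more UMIs than the ubiquitous form. In the other 4 types the share was at most 2.33% in any retina. This share does not depend on the total of the sum, and its RPE means were 21.1% for wt/wt and 44.5% for ko/ko (n = 3 each), with ko/ko replicate 2 below wt/wt replicate 3.

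**Figure D2:**
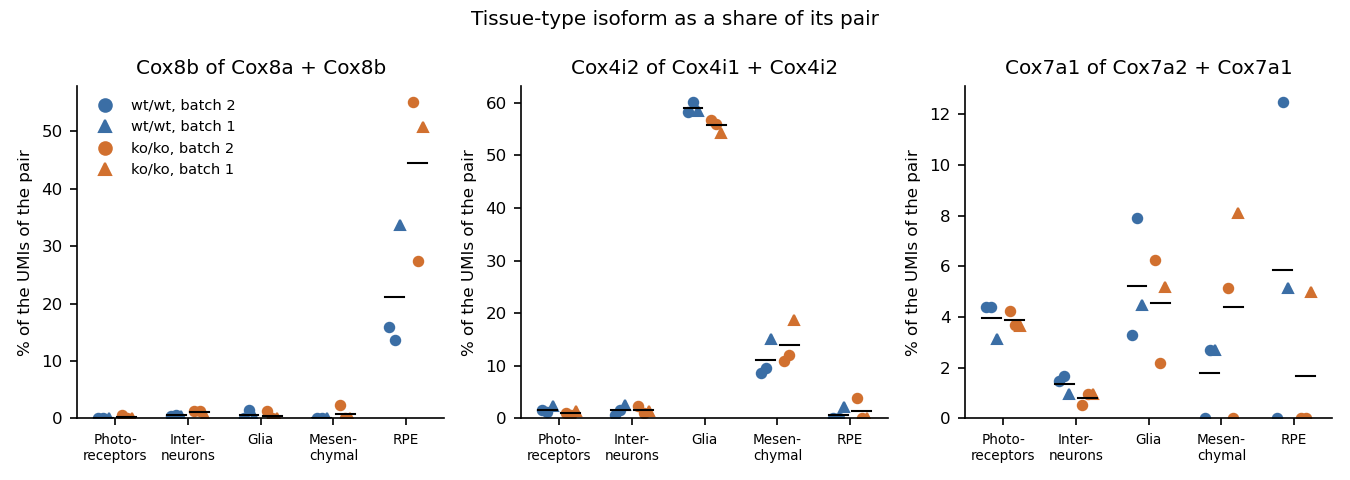
UMIs of the tissue-type isoform as a percentage of the UMIs of its pair (linear axes from 0, a different range in each panel), by cell type, 1 point per retina, blue for wt/wt and orange for ko/ko, triangles for batch 1 and circles for batch 2, bars at genotype means. Cox8b takes 13.6% to 55.2% of its pair in RPE cells and Cox4i2 takes 54.3% to 60.2% of its pair in glia.

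Within the RPE, Cox8b was unevenly spread over cells. It was detected in 9 of 25, 8 of 25 and 10 of 23 RPE cells of the wt/wt retinas (36.0%, exact 95% binomial interval 18.0% to 57.5%; 32.0%, 14.9% to 53.5%; 43.5%, 23.2% to 65.5%). In the ko/ko retinas it was detected in 10 of 17, 7 of 16 and 6 of 10 cells (58.8%, 32.9% to 81.6%; 43.8%, 19.8% to 70.1%; 60.0%, 26.2% to 87.8%). The intervals cover counting error only, and all of them overlap. In other types, where the source of the Cox8b UMIs was not tested, the share was far lower: 0.0614% of photoreceptors (26 of 42359, median depth 428 UMIs), 0.318% of glia (3 of 942, median depth 1683) and 1.97% of interneurons (41 of 2083, median depth 1844) had a Cox8b UMI, against 43.1% of all RPE cells (50 of 116, median depth 1121.5).

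The median depth of RPE cells was 1088, 662 and 1249 UMIs in wt/wt retinas and 881, 1124 and 1720 in ko/ko retinas, with overlap. Pooled over cells it was 1053 in wt/wt and 1329 in ko/ko. Each cell was therefore thinned to 500 UMIs, which left out 19 wt/wt and 5 ko/ko RPE cells. Detection was then 27.6 ± 9.69% for wt/wt and 40.3 ± 9.62% for ko/ko (SD, n = 3), against 37.2 ± 5.83% and 54.2 ± 9.06% unthinned. At 1000 UMIs, with 35 and 17 cells left out, it was 33.4 ± 14.5% and 59.2 ± 17.7%. At 500 UMIs the share in photoreceptors was 0.0720% (12 of 16670) and in glia 0.117% (1 of 855). It was 0.650% (13 of 1999) in interneurons and 0.455% (1 of 220) in mesenchymal cells.

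A few cells carried most of the Cox8b molecules. The top RPE cell of each wt/wt retina had 3, 5 and 22 Cox8b UMIs, and that of each ko/ko retina 18, 12 and 25. The 5 highest cells of a retina held 75.0% to 95.7% of its Cox8b UMIs in RPE cells, whereas the median RPE cell held 0 UMIs in 4 retinas, 2 in ko/ko replicate 1 and 4 in ko/ko replicate 3. Cells with at least 3 UMIs numbered 2, 2 and 6 in wt/wt and 8, 5 and 6 in ko/ko. The 29 such cells held 248 of the 277 Cox8b UMIs in RPE cells. In wt/wt replicates 1 and 2, with 16 and 15 Cox8b UMIs, many of these lay in cells with 1 or 2. Only 6 to 10 RPE cells of a retina had any Cox8b UMI. Over all 116 RPE cells the 5 highest held 36.5% of the UMIs.

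**Figure D3:**
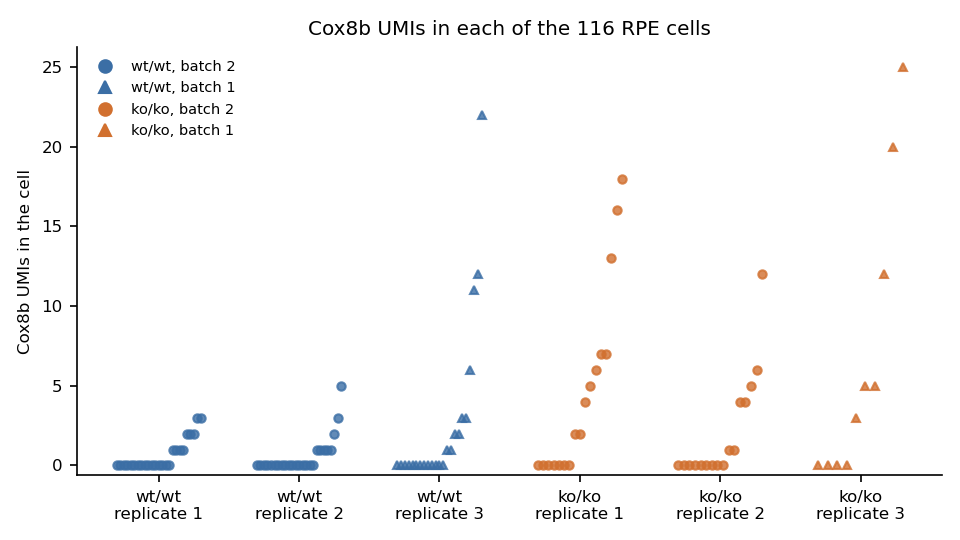
Cox8b UMIs (vertical axis, linear) in each of the 116 RPE cells, 1 point per cell, sorted within each retina, blue for wt/wt and orange for ko/ko, triangles for batch 1. Most cells sit at 0, and the top cells are those of ko/ko replicate 3 (25 UMIs) and wt/wt replicate 3 (22 UMIs).

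The 116 RPE cells were set side by side by their own Cox8b count, 66 cells with 0, 21 with 1 or 2 and 29 with at least 3 UMIs, as a description and not as groups of samples. Their median depths were 880, 1072 and 1738 UMIs. The list of 8 RPE markers was at 103219, 103710 and 112281 CPM. Within it, Ttr, the carrier of thyroxine and of the retinol-binding protein, rose at each step, at 77822, 80639 and 90305 CPM. Rgr fell at each step, at 13294, 12012 and 10775 CPM, as did Lrat, at 522, 439 and 346 CPM. Rpe65, the isomerase of the visual cycle, was at 3317, 2270 and 2704 CPM. Rdh5, a retinol dehydrogenase, was at 5376, 5969 and 5570 CPM, Rlbp1 at 2702, 2197 and 2277 CPM and Rrh at 187, 183 and 305 CPM. The genes of the list thus did not share an order. The melanin list was higher in cells with more Cox8b, mostly through Dct, which held 142 of its 189 UMIs in the top set and is named here after its values were seen: Dct, a melanin synthesis enzyme, was at 963, 1282 and 2887 CPM, and the list of 5 melanin genes at 1043, 1428 and 3842 CPM. Among the other melanin genes, Tyrp1 was at 40.1, 0 and 244 CPM, Mlana at 13.4, 0 and 122 CPM, Tyr at 26.7, 73.2 and 183 CPM, and Pmel had 0, 2 and 20 UMIs, all in ko/ko cells, so that each of the 5 was highest in the top set and 3 of them rose at both steps. The order was the same for the melanin list in wt/wt cells alone (897, 1176 and 2250 CPM) and in ko/ko cells alone (1386, 2063 and 4709 CPM). It was also the same for Dct in wt/wt cells (820, 1074 and 1731 CPM) and ko/ko cells (1297, 1805 and 3516 CPM). That of Tyr did not hold in ko/ko cells (44.7, 0 and 126 CPM), and Pmel had no UMI in wt/wt cells. By retina the order did not hold: the melanin list was at 1048, 2068 and 723 CPM (wt/wt) and 4383, 3327 and 1406 CPM (ko/ko). In both genotypes replicate 3, the retina with the most Cox8b, was thus the lowest. Among the members, Cox8a was at 3290, 3589 and 3639 CPM, Cox4i1 at 1244, 1758 and 1972 CPM, Cox7a2 at 856, 1025 and 1220 CPM, Cox6a1 at 963, 806 and 915 CPM and Cox6b1 at 1016, 952 and 1504 CPM. The sets differ in genotype, with 46 of 66 cells from wt/wt retinas at 0 UMIs and 19 of 29 from ko/ko retinas at 3 or more. Within genotypes, Cox4i1 was at 1068, 1228 and 1673 CPM in wt/wt cells and at 1655, 3094 and 2135 CPM in ko/ko cells, where only 4 cells made up the middle set, so its rising order did not hold in ko/ko. That of Cox8a did not hold in wt/wt cells (3301, 3581 and 3462 CPM), nor that of Cox7a2 in ko/ko cells (984, 773 and 1224 CPM). The part of depth in these values was not tested.

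Outside the RPE, interneurons had the next Cox8b level, with values above those of glia, mesenchymal cells and photoreceptors in every retina. Glia were at 0 UMIs in 3 retinas and mesenchymal cells in 5. In mesenchymal cells of ko/ko replicate 1, 1 UMI equals 12.8 CPM, so a 0 in such small sums cannot place that type below interneurons. Interneurons held 44 UMIs in 41 of 2083 cells (1.97%), at 7.12, 9.62 and 8.53 CPM (wt/wt) and 24.4, 19.4 and 7.62 CPM (ko/ko). The ko/ko retinas of batch 2 were thus above the wt/wt retinas of batch 2, and in batch 1 ko/ko was below wt/wt, and the gene was below the count filter for a test here. RNA from RPE cells was measured beside it: per 1000 UMIs of 7 RPE genes (Rpe65, Rgr, Lrat, Ttr, Best1, Rdh5 and Rrh) there were 17.6 Cox8b UMIs in RPE cells, 12.2 in photoreceptors and 134.6 in interneurons, and 5 of the 41 interneurons with Cox8b had any UMI of those 7 genes. In a split made after these values were seen, 1682 interneurons had most UMIs on a bipolar cell list and 314 on an amacrine cell list. Bipolar-led cells held 43 of the 44 UMIs (40 cells, 2.38%, median depth 1766.5) and amacrine-led cells 1 (0.318%, median depth 3218.5). In photoreceptors, 14 of the 26 UMIs came from ko/ko replicate 1.

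Cox4i2, the lung-type form of the subunit that carries regulatory sites of the enzyme, was the second member bound to a type, and its type was glia. Of its 2318 UMIs, 1877 (81.0%) came from glia, which held 5.55% of all UMIs. Glia of wt/wt retinas had 1008, 870 and 1417 CPM and those of ko/ko retinas 1320, 901 and 1302 CPM, a mean of 1136 ± 238 (SD, n = 6). Mesenchymal cells followed with 145 ± 65.2 CPM, 7.81 times less, with the ranges of glia and mesenchymal cells apart. Mesenchymal cells were above interneurons in every retina, but their lowest retina (85.9 CPM) was below the highest RPE value (89.4 CPM, from 2 UMIs). Interneurons (22.3 CPM), RPE cells (19.5 CPM, 3 UMIs) and photoreceptors (11.9 CPM) overlapped. A Cox4i2 UMI was found in 76.9% of glial cells (724 of 942), and in 44.4% (380 of 855) when cells were thinned to 500 UMIs, against 0.618% of photoreceptors (103 of 16670) at that depth.

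In glia, Cox4i2 had more UMIs than its ubiquitous partner Cox4i1 in all 6 retinas. The share of the pair was 58.3%, 60.2% and 58.5% in wt/wt and 56.8%, 56.0% and 54.3% in ko/ko. The means, 59.0 ± 1.04% and 55.7 ± 1.24% (SD, n = 3), did not overlap in their retinas, but the two-sided exact permutation p was 0.1, the smallest that 3 against 3 can give, and 1 after Benjamini-Hochberg adjustment over the 16 shares tested. The other 15 shares had larger p-values. In mesenchymal cells the share was 12.5 ± 3.79% (n = 6), and in the 3 other types its mean was at most 1.57%.

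The mesenchymal class mixes cell kinds, so each of its 246 cells was assigned to the microglia, endothelial, pericyte or fibroblast list with most UMIs; 11 cells had a tie or no such UMI. Pericyte-led cells, 35 in all, had 642 CPM of Cox4i2 (53 UMIs, 24 of 35 cells), with UMIs in all 6 retinas and a range of 182 to 933 CPM. Endothelial-led cells (112) had 65.9 CPM and microglia-led cells (88) 34.9 CPM. Per 1000 UMIs of 4 glial genes (Glul, Dkk3, Slc1a3 and Aqp4), pooled over retinas, Cox4i2 had 56.5 UMIs in glia, 68.2 in photoreceptors, 61.1 in interneurons and 105.5 in mesenchymal cells. By retina this ran from 48.0 to 61.9 in glia, 48.7 to 89.4 in photoreceptors, 32.3 to 134.3 in interneurons and 59.1 to 198.0 in mesenchymal cells. The source of the Cox4i2 UMIs outside glia was not tested. In photoreceptors, 50 of the 252 cells with Cox4i2 also had a UMI of those 4 genes.

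The remaining muscle-type forms were sparse. Cox7a1 had 454 UMIs, 369 of them in photoreceptors, at 17.5 ± 2.29 CPM (SD, n = 6). Its levels in glia (18.4 ± 7.81 CPM, 30 UMIs) and mesenchymal cells (14.3 CPM, 7 UMIs) overlapped that, the RPE value of 44.1 CPM came from 7 UMIs in 3 retinas, and interneurons had 7.80 ± 2.72 CPM. As a share of the pair with Cox7a2 this was 3.92 ± 0.508% in photoreceptors and 1.08 ± 0.414% in interneurons, with the ranges apart. Cox6a2 had 4 UMIs in the whole table, 3 in microglia-led mesenchymal cells and 1 in an interneuron. It was at 0 in 42359 photoreceptors, which allows a share of cells with a UMI of up to 0.00708%, and in 116 RPE cells, which allows up to 2.59%. At median depths of 428 and 1121.5 UMIs these limits bear on detection, not on how many cells carry the transcript.

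The ubiquitous forms Cox7a2, Cox6a1, Cox4i1 and Cox6b1 were present in every type and retina, with smaller steps between types. By mean CPM over the 6 retinas all 4 were highest in RPE cells: Cox6b1 had 1180 ± 208 CPM there against 812 ± 74.4 in interneurons, with ranges apart, and Cox7a2 had 1013 ± 133 against 723 ± 63.6, higher in each of the 6 retinas, with ranges that overlapped. With TMM-scaled CPM, which lowers RPE values by factors of 1.16 to 1.65, Cox7a2 was 740 in RPE cells and 752 in interneurons, and Cox4i1 1185 and 1436, so the order of these types turned for both genes. Cox4i1 had 1659 ± 540 CPM in RPE cells and 1380 ± 98.0 in interneurons before that scaling, and the 3 retinas with more in RPE cells were the ko/ko retinas. The wt/wt retinas had less Cox4i1 in RPE cells (1160, 1165 and 1307 CPM) than in interneurons (1335, 1265 and 1346 CPM). Cox6a1 was 928 ± 297 CPM in RPE cells and 597 ± 164 in mesenchymal cells, with overlapping ranges. Under either scaling, Cox8a, Cox8b, Cox6a1 and Cox6b1 had their highest mean in RPE cells and Cox4i2 in glia. After TMM scaling the lead was small for Cox6b1 (860 ± 140 against 845 ± 99.8 in interneurons) and Cox6a1 (676 ± 210 against 615 ± 154 in photoreceptors), with overlapping ranges for both.

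Whether other genes shared these patterns was asked over the 30 sums of 5 types and 6 retinas, with Pearson's r of log2(CPM + 50) among 11382 genes with at least 200 UMIs. The sums share 6 libraries and differ in depth, so r is a description. Nearest to Cox8b were Rdh5 (r = 0.970), Cltrn (0.970), Rpe65 (0.969), Ttr (0.967) and Ptgds (0.963). Nearest to Cox4i2 were Ddah2 (0.975), Plpp3 (0.975) and Anxa1 (0.971). For Cox7a1 the nearest were Gm3191 (0.746), Mettl18 (0.716) and Gm14270 (0.702), and Cox6a2 was below the minimum.

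The other genes of the enzyme were looked at as lists. Of 10 further nuclear subunits, 8 had at least 200 UMIs and 4 of these were highest in RPE cells by CPM; of 27 assembly factors, 26 had that many and 11 were highest in RPE cells. Over all 11382 genes, 10.1% were highest in RPE cells. All these counts were made before TMM scaling, which lowers RPE values, and were not repeated after it. The 3 mitochondrial-genome subunits were highest in interneurons: mt-Co1, a catalytic subunit, had 2042 ± 684 CPM there and 719 ± 495 in photoreceptors (SD, n = 6). The lead of mt-Co2 (415 ± 260 against 274 ± 278 CPM in photoreceptors) and mt-Co3 (1582 ± 953 against 1041 ± 865 CPM) was within the spread over retinas, among which the batch 1 retinas had the higher mitochondrial shares given above. Cox6b2, the testis form of the Cox6b1 subunit, was picked out after its values were seen: it had 208 ± 55.5 CPM in glia and 174 ± 130 in RPE cells, against at most 25.8 in the other 3 types.

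Between genotypes, the 2 members with the largest fitted differences in RPE cells were Cox8b and Cox4i1. Cox8b averaged 971 ± 676 CPM for wt/wt and 3047 ± 1396 CPM for ko/ko (SD, n = 3). The fitted log2 fold change was 1.50 (SE 0.51), and the groups overlapped because ko/ko replicate 2 (1464 CPM) lay below wt/wt replicate 3 (1752 CPM). Within batch 2 both ko/ko retinas were above both wt/wt retinas, with a log2 ratio of the means of 2.12, and within batch 1, with 1 retina per genotype, it was 1.23. The fitted log2 fold change was 2.31 without wt/wt replicate 3 and 1.20 without wt/wt replicate 2. Per 1000 UMIs of the 7 RPE genes, Cox8b was 6.25, 5.36 and 19.2 in wt/wt and 32.5, 12.0 and 37.9 in ko/ko.

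Cox4i1, the ubiquitous partner of Cox4i2, had 1160, 1165 and 1307 CPM in RPE cells of wt/wt retinas. RPE cells of ko/ko retinas had 2192, 1730 and 2401 CPM, for a log2 fold change of 0.70 (SE 0.24), with every ko/ko retina above every wt/wt retina. It was 0.75 as a log2 ratio of the means in batch 2 and 0.88 in batch 1. Cox7a2 was also above in every ko/ko retina, by little: 748, 1053 and 1029 CPM against 1073, 1065 and 1113 CPM, a log2 fold change of 0.11 (SE 0.25), which turned to -0.05 without wt/wt replicate 1. Cox8a (-0.01, SE 0.19), Cox6a1 (-0.05, SE 0.35) and Cox6b1 (0.12, SE 0.26) had overlapping groups, and Cox7a1, Cox6a2 and Cox4i2 were below the count filter. Of the 308 genes tested in RPE cells, 6.17% had every ko/ko retina above every wt/wt retina and 0% passed an adjusted p of 0.05 in edgeR, with 11 genes (3.57%) under an unadjusted p of 0.05; limma-voom called 0 and DESeq2 called 1. Since this contrast chose the members, nothing is read from those shares.

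Other values also differed between the genotypes in the same RPE sums. RPE cells numbered 25, 25 and 23 in wt/wt and 17, 16 and 10 in ko/ko. Since the paper ties their presence to how the retina was isolated, nothing about genotype is read from these counts. The 8 RPE markers together were higher in every ko/ko retina (values above), and the melanin list was at 723 to 2068 CPM (wt/wt) and 1406 to 4383 CPM (ko/ko). The glial list was also higher in every ko/ko retina (values above). Its genes Glul, Dkk3, Slc1a3 and Aqp4 together had 13, 13 and 33 UMIs in wt/wt and 24, 10 and 12 in ko/ko, with overlap. The rest of that list is Apoe and Rlbp1. The amacrine list was lower in every ko/ko retina, at 58.6 to 89.4 CPM against 113 to 187 CPM, with 4 of its 6 markers at 0. The amacrine values rest on few UMIs: in RPE cells of ko/ko replicate 3, 1 UMI equals 58.6 CPM. The part of these lists in the values of Cox8b and Cox4i1 was not tested. Of the other nuclear subunits 4 could be tested in RPE cells and 0 passed, from Cox5a (log2 fold change 0.79, SE 0.54) to Cox6c (-0.18, SE 0.36), and of 3 assembly factors 0 passed, from Higd2a (0.46, SE 0.31) to Cox14 (-0.43, SE 0.38).

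In the other 4 types no member passed the test. Of the 9 members, 7 had enough counts in photoreceptors, 5 in interneurons, 6 in glia and 6 in mesenchymal cells, 24 tests in all. The adjusted p (edgeR, Benjamini-Hochberg over all genes) was at least 0.799 in each, and 0 of the 24 were under an unadjusted p of 0.05. With genotype as the only term, the count filter and all 6 retinas, no gene at all was called in these types: 0% of 13053 genes in photoreceptors, 0% of 7698 in interneurons, 0% of 4130 in glia and 0% of 1717 in mesenchymal cells, and 0 by limma-voom or DESeq2. With batch as a covariate, mesenchymal cells had 21 calls in edgeR and 35 in limma-voom, and 26 with a replicate block; without the count filter there was 1 call in photoreceptors, 1 in interneurons and 28 in mesenchymal cells, and without ko/ko replicate 2 there were 7 in mesenchymal cells. None of the 24 member tests passed under these alternatives. At an unadjusted p of 0.05 there were 109 genes (0.835%) in photoreceptors, 86 (1.12%) in interneurons, 51 (1.23%) in glia and 150 (8.74%) in mesenchymal cells. Above 0 lay 5 of 5 members in interneurons (median 0.11, against 48.6% of all genes), 5 of 6 in glia (median 0.19, against 47.9%) and 5 of 6 in mesenchymal cells (median 0.20, against 53.2%). The log2 fold changes of the members ran from -0.48 (SE 0.51, Cox4i2 in photoreceptors) to 0.38 (SE 0.44, Cox4i2 in mesenchymal cells). The first of these turned to 0.23 without wt/wt replicate 3. Among all genes, the paper reports significant differences by limma-voom only in interneurons, mesenchymal cells and RPE cells. The reason why its calls were not met by the limma-voom fit here was not tested.

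The other genes of the enzyme gave no call in these 4 types here either. The paper, which used limma-voom, lists the nuclear subunit Cox7c as lower in ko/ko interneurons. In the main fit here its log2 fold change in interneurons was -0.47 (SE 0.25), and the reason for the unlike call was not tested. Of the 10 other nuclear subunits, 8 were tested in photoreceptors, 8 in interneurons, 8 in glia and 6 in mesenchymal cells, and of the 27 assembly factors 27, 21, 11 and 4. The makeup of the mesenchymal sums differed between genotypes: microglia markers were at 18671 to 25796 CPM (wt/wt) and 5213 to 16604 CPM (ko/ko), without overlap, and endothelial markers at 5191 to 9639 CPM (wt/wt) and 9275 to 12905 CPM (ko/ko), and its part in the values of members and lists was not tested. Above 0 lay 6 of 8 and 20 of 27 of these lists in photoreceptors, 5 of 8 and 11 of 21 in interneurons, 6 of 8 and 7 of 11 in glia. In mesenchymal cells, where 53.2% of all genes were above 0, 0 of the 6 other nuclear subunits had a log2 fold change above 0, from Ndufa4 (-0.01) to Cox7c (-0.80), and 0 of the 4 assembly factors did, from Higd2a (-0.08) to Cox14 (-0.42).

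In photoreceptors 6 of 7 members had a log2 fold change above 0 (median 0.26), against 48.3% of all genes tested there (median -0.01), but the direction did not hold within batches for 5 of these 6. For Cox8a, Cox7a2, Cox6a1, Cox4i1 and Cox6b1 the log2 ratio of ko/ko to wt/wt was 0.40 to 0.48 in batch 2 and -0.28 to -0.07 in batch 1, whereas Cox7a1 was above 0 in both (0.32 and 0.09). In glia, Cox8a, Cox4i2 and Cox6b1 were above 0 in batch 2 (0.12, 0.24 and 0.45) and below 0 in batch 1 (-0.15, -0.12 and -0.11), and the other 3 members tested there were above 0 in both. Cox8a in photoreceptors, for instance, was at 607, 596 and 1205 CPM (wt/wt) and 874, 717 and 992 CPM (ko/ko), so that the highest value of each genotype was its batch 1 retina. Over all cells, 0 of 15330 genes were called (0%, with 101, or 0.659%, under an unadjusted p of 0.05, and 0 by limma-voom or DESeq2). The 7 members tested there other than Cox8b ran from -0.29 to 0.29 with adjusted p of 1.00 (edgeR). Cox8b over all cells was at 8.24 ± 5.11 CPM (wt/wt) and 17.4 ± 10.6 CPM (ko/ko), with most of its UMIs from the RPE cells described above. The groups overlapped: by retina it was at 5.36, 5.22 and 14.1 CPM (wt/wt) and 29.4, 9.82 and 12.8 CPM (ko/ko). In batch 1 ko/ko was thus below wt/wt.

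**Figure D4:**
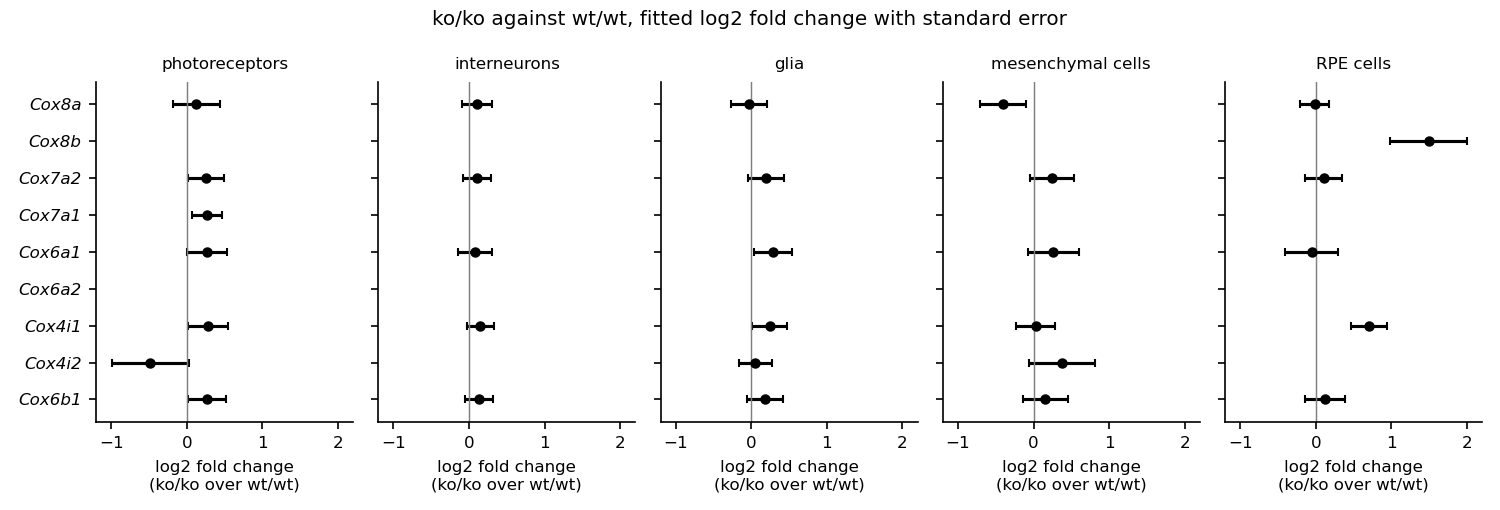
Fitted log2 fold change of ko/ko over wt/wt (horizontal axis) with its standard error (bars) for each member with enough counts, 1 panel per cell type, 3 retinas per genotype. Cox8b (1.50) and Cox4i1 (0.70) in RPE cells lie farthest to the right, in a panel given with no test. In the other 4 panels the members were tested and none passed.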

How the data were processed

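Retinal cell suspensions were sequenced with the 10x Genomics single-cell kit that reads 3′ ends. The authors aligned reads to GRCm38 with Cell Ranger 3.1.0 (version per the labels), counting exonic reads, and deposited raw UMI counts per gene and cell, not normalized, with a table of each cell's retina, batch and cell type, which came from their Louvain clusters in Seurat. Those types were used as given. No cell filter or doublet step was applied here. Gene identifiers were named with GENCODE M21 (52489 of 52636; 147 kept their identifier).

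For every retina, UMIs of each cell type were added up. Genotypes were compared on the sums with edgeR 4.0.16 (glmQLFit and glmQLFTest, TMM factors, filterByExpr, genotype only, Benjamini-Hochberg over all genes tested), called at an adjusted p under 0.05; the study used limma-voom, an alternative here. Pair shares were tested by exact permutation, two-sided. Cell types come from clustering these counts, so differences between types are a description. Photoreceptor sums of any 2 retinas differed with a chi-square of at least 1.67 per degree of freedom, so none was counted as a repeat. The scripts were tested on simulated counts.

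The members and gene lists were chosen with earlier results of these data known. Named genes are the members, the 5 genes most like Cox8b and the 3 most like each other tissue-type member, and the highest and lowest fold change of each pathway list; exceptions are marked. Alternatives were limma-voom 3.58.1, DESeq2 1.42.0, RLE factors, no count filter, batch as a covariate, a replicate block, a stricter cell filter (500 UMIs or more, mitochondrial share up to 10%), leaving out the 5% of cells with most UMIs, RPE cells with at least 2 markers, thinning, TMM-scaled CPM and each retina left out. Sequences and positions are from GENCODE M21, aligned with Biopython 1.88. Python 3.11.15 and R 4.3.3 were used. Protein sequences were not used here.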

Additional observations from a re-analysis of the deposited data

How the results depend on the processing

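The direction of Cox8b and Cox4i1 in RPE cells was the same under every alternative run, with log2 fold changes of 1.20 to 2.31 and 0.62 to 0.85. These alternatives refit the same retinas and the set was chosen by the Cox8b contrast, so the shared direction is a description and not support. Outside RPE cells, 0 values of the 31 member tests (Cox8b over all cells left out) passed an adjusted p of 0.05 under any alternative, and the lowest was 0.542 (edgeR, limma-voom or DESeq2). The RPE values rest on few cells and UMIs, and the batch 1 retinas hold 1 sample per genotype. Counts of all genes called were 0 in the main fit in each comparison. With no count filter they were 1 in photoreceptors (Hbb-bt), 1 in interneurons (Hist1h4d), 28 in mesenchymal cells, 3 in RPE cells and 1 over all cells (Ccl4). In mesenchymal cells they were 21 with batch as a covariate in edgeR, 35 in limma-voom and 0 to 7 with a retina left out (7 without ko/ko replicate 2). In RPE cells they were 1 by DESeq2 (Malat1), 3 and 5 with batch in edgeR and limma-voom, and 0 to 2 with a retina left out (2 without wt/wt replicate 3). Totals for RPE cells include Cox8b where it passed, and since the set was chosen on that contrast nothing is read from its calls. The cause of these shifts was not tested.

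The labels number the replicates alike in both genotypes. Deviations of replicate 1 of wt/wt and ko/ko correlated at -0.067 in photoreceptors, -0.074 in glia, 0.073 over all cells, 0.092 in RPE cells, 0.093 in mesenchymal cells and 0.105 in interneurons, and those of replicates 2 and 3 at 0.231 to 0.648. Every pair was thus over 0.1 only in interneurons, and the numbers were taken as names only; in photoreceptors wt/wt replicate 1 correlated best with ko/ko replicate 2 (0.50). With the replicate block, 26 genes were called in mesenchymal cells and 4 in RPE cells, against 0 without it, and in the other comparisons 0 with and without it, interneurons included.

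Several member fold changes changed sign, small ones and also those of Cox4i2 in photoreceptors (-0.48) and in mesenchymal cells (0.38). Cox4i1 in mesenchymal cells was 0.027, and -0.0049 with DESeq2, -0.0046 with RLE factors and -0.028 with the stricter cell filter. With a retina left out, the log2 fold change ran from -0.043 to 0.56 for Cox8a and -0.85 to 0.23 for Cox4i2 in photoreceptors, -0.084 to 0.27 for Cox6a1 in interneurons, -0.18 to 0.20 for Cox8a and -0.026 to 0.20 for Cox4i2 in glia, -0.0049 to 0.49 for Cox6a1, -0.050 to 0.069 for Cox4i1 and -0.013 to 0.76 for Cox4i2 in mesenchymal cells, and -0.029 to 0.47 for Cox8a and -0.62 to 0.23 for Cox4i2 over all cells. The Cox4i2 share in ko/ko glia was 57.0% without the 5% of cells with most UMIs, and the share of RPE cells with Cox8b was 27.6% (wt/wt) and 40.3% (ko/ko) when thinned to 500 UMIs.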
